A study of Mus musculus with 8 samples.

Results

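The cytoplasmic ribosomal protein genes were taken as the mouse protein-coding genes whose symbols have Rpl or Rps followed by a digit, with Rpsa, Rplp0, Rplp1 and Rplp2. Of 101 coding symbols found this way, 10 ribosomal S6 kinase genes (Rps6k), Rps19bp1 and 2 genes with pseudogene symbols were left out, and 88 of the 21887 coding genes remained. Sorted by symbol alone, they comprised 51 genes of the large subunit, 34 of the small subunit and the 3 stalk genes, spread over 19 chromosomes. Of the 88, 10 have paralog symbols, among them Rpl3l and Rpl10l. Rps23rg1, the longest member at 16779 bp, has another ending and was kept by its symbol without being counted among the 10.

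The series used chromatin immunoprecipitation with sequencing on mouse embryonic fibroblasts (MEF) of strain C57BL/6, taken at E15.5 and used at passages 2 to 4. Its 8 libraries covered Hmga2 wt and Hmga2 Ko cells, with antibodies to HMGA2, to γ-H2AX (labelled H2AXS139ph) and to ATM, and an input. The 3 wild-type antibody libraries are described here, all with the intact Hmga2 gene and no treatment named in the labels. Each was a single library, so every value below describes that library, and differences between genotypes were not analysed here. Peak lists do not measure expression, and the labelled cell type was therefore not checked against markers.

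Ribosomal proteins are the protein subunits of the ribosome, Rpl proteins in the large and Rps proteins in the small subunit, and their genes are transcribed at high levels in growing cells. Many of their messenger RNAs begin with a C in a run of pyrimidines, through which mTOR signalling controls their translation, and many of their introns carry small nucleolar RNAs (snoRNAs). Free Rpl5 and Rpl11 bind Mdm2 and stabilise p53 when ribosome assembly is disturbed. HMGA2 binds AT-rich DNA through its AT-hooks. ATM responds to DNA breaks by phosphorylating many proteins, among them the histone variant H2AX, which is then called γ-H2AX. The question named in the series title is whether γ-H2AX is needed where high mobility group proteins drive transcription.

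The promoters that carried a peak are shown first. Of the 88 genes, 68 had an entry in the RefSeq promoter table (GRCm38.p6, 250 bases before to 50 after the start). These windows were touched by a γ-H2AX peak in 5 genes, 7.35% (3.18 to 16.1), by an ATM peak in 3 genes, 4.41% (1.51 to 12.2), and by an HMGA2 peak in 2 genes, 2.94% (0.81 to 10.1). Among all 17492 coding genes with an entry the shares were 3.9%, 1.84% and 1.27%, inside these intervals. Rpl11 was the one gene whose promoter window was touched by all 3 antibodies. The bases before each start are given 5′ to 3′ on the gene's strand, with those under the named peak in capitals.
Rpl11, chr4:136053394-136053643, minus strand, HMGA2 peak: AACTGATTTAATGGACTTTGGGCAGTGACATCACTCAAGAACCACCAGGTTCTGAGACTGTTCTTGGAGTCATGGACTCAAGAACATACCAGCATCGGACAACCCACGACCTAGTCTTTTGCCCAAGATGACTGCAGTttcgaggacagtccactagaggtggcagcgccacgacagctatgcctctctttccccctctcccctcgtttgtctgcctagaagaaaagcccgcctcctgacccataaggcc
Rpl11, same bases, ATM peak: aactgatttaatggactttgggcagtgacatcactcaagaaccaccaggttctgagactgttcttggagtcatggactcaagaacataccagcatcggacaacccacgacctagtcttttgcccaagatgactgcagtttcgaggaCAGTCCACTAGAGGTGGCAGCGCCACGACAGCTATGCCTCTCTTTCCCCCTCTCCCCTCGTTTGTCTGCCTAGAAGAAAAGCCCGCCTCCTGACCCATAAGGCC
Rps28, chr17:33824563-33824812, minus strand, ATM peak: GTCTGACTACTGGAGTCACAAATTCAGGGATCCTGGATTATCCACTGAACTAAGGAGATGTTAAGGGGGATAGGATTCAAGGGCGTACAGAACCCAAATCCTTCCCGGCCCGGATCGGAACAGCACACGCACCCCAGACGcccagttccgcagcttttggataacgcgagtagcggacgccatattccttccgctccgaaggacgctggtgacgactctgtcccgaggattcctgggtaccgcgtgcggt
Rpl37, chr15:5116363-5116612, plus strand, γ-H2AX peak: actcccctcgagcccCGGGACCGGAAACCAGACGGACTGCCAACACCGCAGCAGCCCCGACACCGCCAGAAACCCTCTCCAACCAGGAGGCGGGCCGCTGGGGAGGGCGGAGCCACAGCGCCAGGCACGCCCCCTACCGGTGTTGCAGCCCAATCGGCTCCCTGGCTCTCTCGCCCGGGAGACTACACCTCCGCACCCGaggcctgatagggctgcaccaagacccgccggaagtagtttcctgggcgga
Rpl39, chrX:37085223-37085472, minus strand, γ-H2AX peak: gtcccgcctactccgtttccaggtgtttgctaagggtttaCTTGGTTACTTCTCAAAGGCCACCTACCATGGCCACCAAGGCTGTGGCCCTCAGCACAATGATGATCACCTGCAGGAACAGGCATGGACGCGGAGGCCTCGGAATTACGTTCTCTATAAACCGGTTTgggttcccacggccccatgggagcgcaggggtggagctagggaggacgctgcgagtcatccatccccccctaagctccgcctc

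In Rpl11 the HMGA2 peak (score 22.3) covered 138 of these bases, farther from the start, and the ATM (20.8) and γ-H2AX (21.5) peaks covered the bases next to the start and the first 50 of the gene. The bases of Rpl11 under the HMGA2 peak held 52.9% A and T, against 46% in the whole window. In Rps28 the HMGA2 peak (22.1) covered 111 of the capitals printed for the ATM peak (28.5), and these held 50.5% A and T against 43.7% in the window. The γ-H2AX peaks of Rpl37 (29.1) and Rpl39 (28.3) covered 184 and 127 bases. That of Rpl37 also lay in the neighbouring gene Card6, so it cannot be assigned to 1 gene. Rps12 was touched by an ATM peak (20.2), and Rps2 (26.7) and Rps23rg1 (22.5) by γ-H2AX peaks. The bases under the ATM peak of Rps28 (47.1%) and the γ-H2AX peak of Rpl39 (46.5% against 42%) also held more A and T than their windows. Those of Rpl11 (ATM 40.4%, γ-H2AX 37.9%), Rpl37 (28.8% against 32.7%), Rps12 (36.9% against 37%), Rps2 (34.2% against 36%) and Rps23rg1 (48.7% against 49.7%) held less. Shares under a peak counted only covered bases before the start, whereas window shares counted all bases of the window. For Rpl11 they rested on 104 bases (ATM) and 29 (γ-H2AX), leaving out the 50 covered after the start. For Rps23rg1, 36 covered bases after the start were left out. Base composition under all HMGA2 peaks was not measured.

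Over the 68 promoters A and T made up a median of 43%, against 43.7% for all coding genes. A run of at least 8 pyrimidines held the start base in 17 of them, 25% against 3.48%, as in Rps6, the substrate of the S6 kinases, the stalk gene Rplp2 and the large-subunit gene Rpl28. These are printed from 20 bases before the start, the run in capitals.
Rps6, chr4:86857348-86857387, minus strand: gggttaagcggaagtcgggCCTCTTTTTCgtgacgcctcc
Rplp2, chr7:141447631-141447670, plus strand: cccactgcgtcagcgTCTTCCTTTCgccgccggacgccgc
Rpl28, chr7:4792945-4792984, plus strand: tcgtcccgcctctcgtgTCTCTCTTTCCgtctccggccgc
On either strand of the 68 windows, the ETS core CCGGAAG was found in 25 (36.8% against 11.9% of all coding promoters) and GCCATNTT, a YY1-like motif, in 13 (19.1% against 6.65%). GGGCGG, the GC box, was found in 39 (57.4% against 46.3%), TATAAA in 8 (11.8% against 13.3%), CACGTG in 5 (7.35% against 7.91%) and the NRF1 motif in 1 (1.47% against 1.33%). GGGCGG and CCGGAAG were both found in the Rpl37 bases printed above, and GCCATNTT in those of Rps28.

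The first comparison asked how many ribosomal protein genes carried each antibody, against coding genes of like length. The genes are short, from 374 to 16779 bp with a median of 3179 bp, against 17169 bp for all coding genes, and a short gene offers less sequence for a peak. Within 1 kb means that a peak touched the stretch from 1 kb outside to 1 kb inside either gene end, so a peak deep in a longer gene counts for the body alone. γ-H2AX peaks lay within 1 kb of an end of 39 of the 88 genes, 44.3% (34.4 to 54.7), where other coding genes of like length gave 21.1% and all coding genes 23.3%. ATM peaks lay there in 23 genes, 26.1% (18.1 to 36.2), against 14.9% at like length and 16.1% of all coding genes. HMGA2 peaks lay there in 19 genes, 21.6% (14.3 to 31.3), against 14.2% and 17.9%. The ratio to the like-length share was 2.11 (1.63 to 2.6) for γ-H2AX, 1.75 (1.21 to 2.42) for ATM and 1.52 (1.01 to 2.21) for HMGA2. The like-length share lay below the interval for each antibody, and nearest to it for HMGA2. These intervals cover counting error alone.

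In the gene bodies γ-H2AX touched 37 genes, 42% (32.3 to 52.5), against 20% at like length. ATM touched 22 bodies, 25% (17.1 to 35) against 14.9%, and HMGA2 19 bodies, 21.6% (14.3 to 31.3) against 13.3%. Among all coding genes, which are longer, the body shares were 55.2% for γ-H2AX, 51.7% for ATM and 49.4% for HMGA2. Within 5 kb of an end the counts were 65 genes for γ-H2AX, 73.9% (63.8 to 81.9) against 48.2% at like length and 58.5% of all coding genes, and 52 for HMGA2, 59.1% (48.6 to 68.8) against 40% and 52.3%. For ATM there were 48 genes, 54.5% (44.2 to 64.5) against 41.3% and 52.3%. Of the peaks in or within 5 kb of the genes, counted once per gene, some also touched the body of another coding gene. These were 32 of 117 for γ-H2AX, 23 of 80 for HMGA2 and 18 of 75 for ATM. The same share around other coding genes was not counted. With peaks scoring 25 or more, the genes within 1 kb numbered 22 for γ-H2AX, 11 for ATM and 7 for HMGA2, and the ratio to like length was then 2.76, 2.23 and 1.43. No intervals were computed for these ratios.

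**Figure D1:**
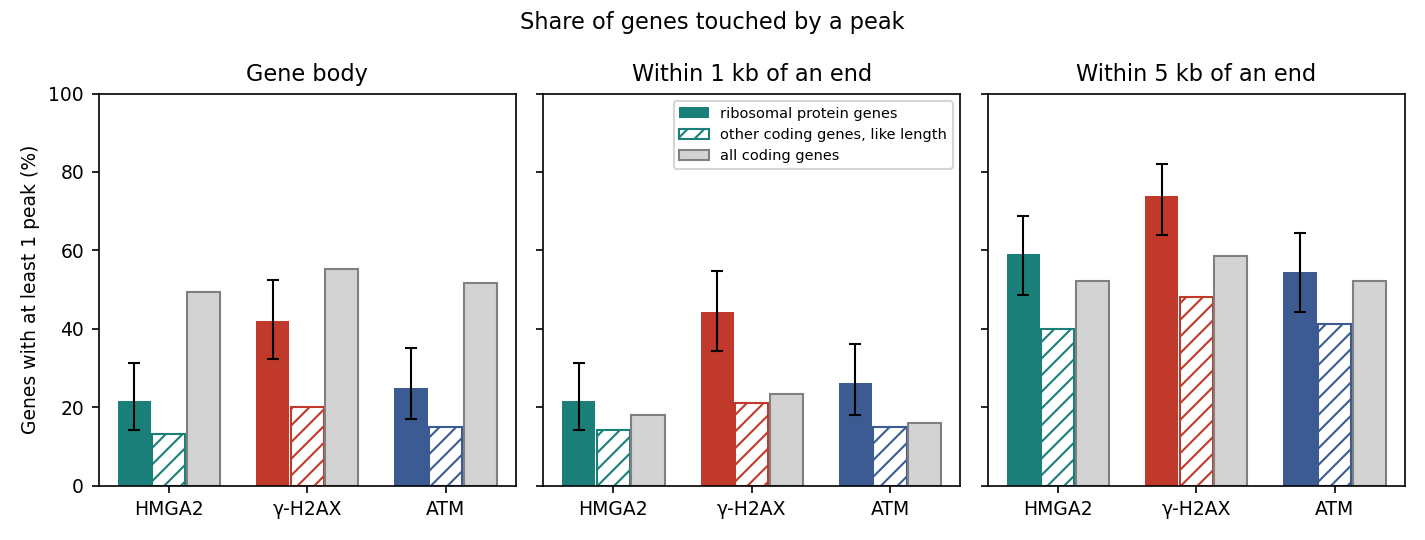
Share of genes (%, y axis) with at least 1 peak in the body, within 1 kb and within 5 kb of an end, for each antibody. Filled bars are the 88 ribosomal protein genes with 95% Wilson intervals, hatched bars other coding genes standardised to the same lengths and grey bars all coding genes; the filled γ-H2AX bar within 1 kb is at 44.3% and the hatched one at 21.1%.

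Peak density, counted by peak midpoints, showed how far this reached. Inside the genes there were 13.2 γ-H2AX peaks per 100 kb (9.57 to 17.7), against 5.5 in other coding genes of like length, a ratio of 2.4 (1.74 to 3.22). ATM had 7.49 per 100 kb (4.85 to 11.1) against 3.83, and HMGA2 6.59 (4.13 to 9.98) against 3.59. In the first 1 kb outside, the ratio was 1.87 (1.12 to 2.92) for γ-H2AX, 1.9 (1.04 to 3.19) for ATM and 1.48 (0.738 to 2.65) for HMGA2. At 1 to 5 kb outside, the ratio was 1.6 (1.18 to 2.13) for HMGA2, 1.51 (1.13 to 1.98) for γ-H2AX and 1.27 (0.893 to 1.76) for ATM. At 5 to 10 kb it was 0.908 (0.625 to 1.28) for HMGA2 and 0.977 (0.685 to 1.35) for ATM, whereas γ-H2AX stood at 1.44 (1.1 to 1.85). At 25 to 50 kb the ratios were 1.12 (0.979 to 1.27) for γ-H2AX, 0.917 (0.784 to 1.07) for HMGA2 and 0.853 (0.726 to 0.996) for ATM. All 3 ratios lay above 1 by more than their intervals in the bodies. Outside the genes that held for γ-H2AX in each band up to 25 kb, with 1.2 (1.02 to 1.41) at 10 to 25 kb, for ATM in the first 1 kb and for HMGA2 at 1 to 5 kb. At 25 to 50 kb no ratio lay above 1 by more than its interval, and that of ATM lay below.

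**Figure D2:**
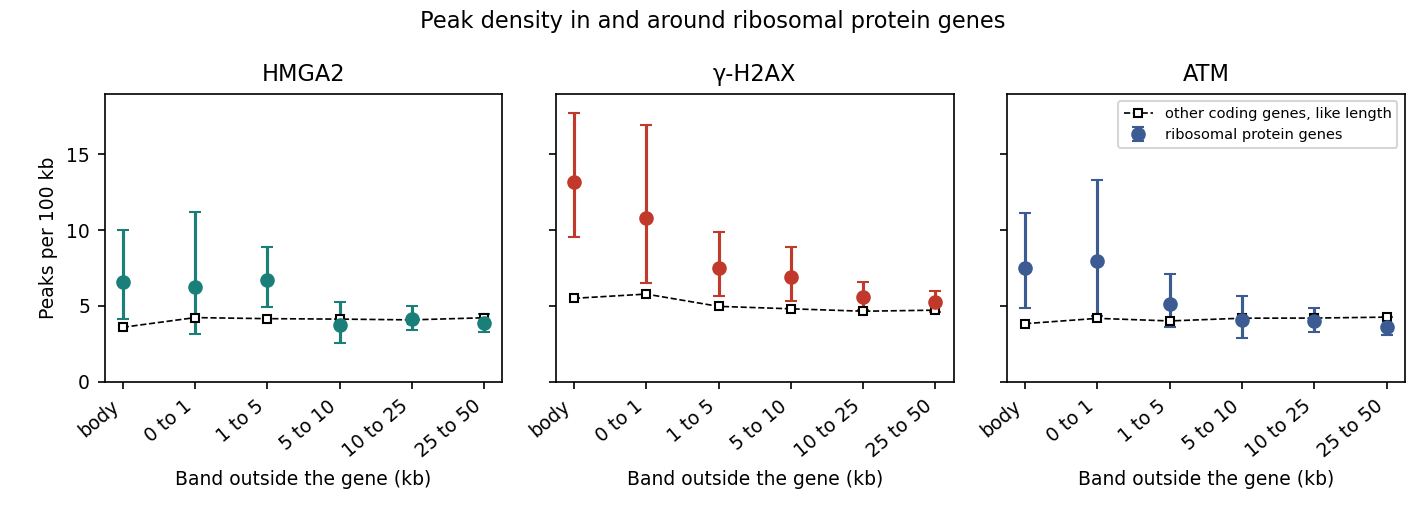
Peaks per 100 kb (y axis) in the bodies of ribosomal protein genes and in bands of distance outside them (x axis, kb), with exact Poisson intervals; open squares give other coding genes of like length. γ-H2AX is at 13.2 in the bodies and 5.27 at 25 to 50 kb.

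Most of these peaks scored close to the authors' threshold of 20. At the bodies and within 1 kb, the 64 γ-H2AX peaks had scores of 20.1 to 64.6 with a median of 25.3, the 40 ATM peaks 20.2 to 35.9 with a median of 24.1, and the 33 HMGA2 peaks 20.1 to 53.5 with a median of 23.6. For γ-H2AX, 14 peaks scored 30 or more, 21.9% (13.5 to 33.4), against 10.7% of γ-H2AX peaks at all coding genes. For ATM it was 3 peaks, 7.5% (2.58 to 19.9) against 10%, and for HMGA2 4 peaks, 12.1% (4.82 to 27.3) against 11.6%. The γ-H2AX share lay above that at all coding genes by more than its interval. For ATM and HMGA2 the share at all coding genes lay inside the interval. Scores were not compared with those of peaks at genes of like length.

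**Figure D3:**
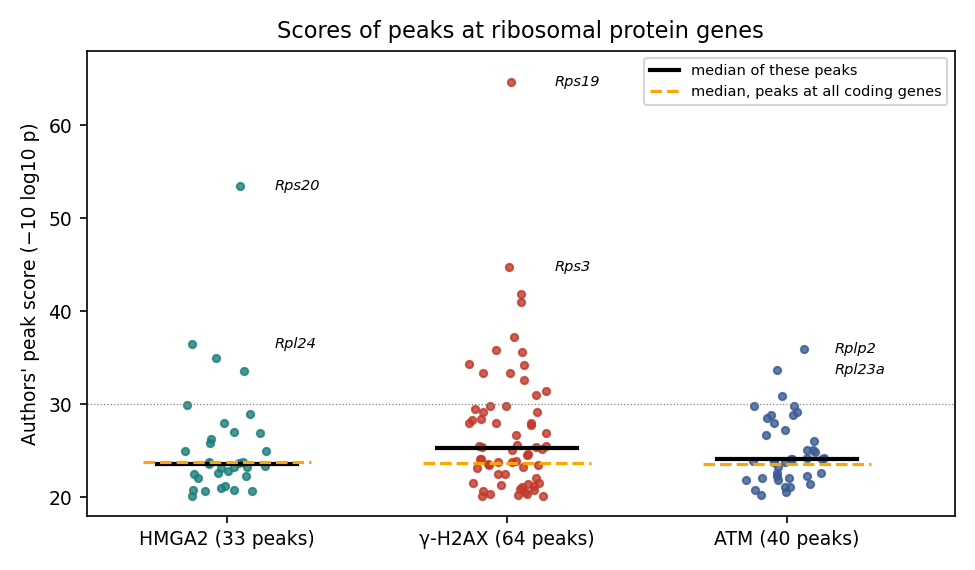
Authors' scores (y axis, 10 times the negative log10 of p) of the peaks in the bodies or within 1 kb of the ends of ribosomal protein genes, 1 point per peak, by antibody. Black lines are their medians (23.6, 25.3 and 24.1) and dashed lines the medians of peaks at all coding genes, and the dotted line marks a score of 30; Rps19 has the highest γ-H2AX point at 64.6.

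Within 1 kb of an end γ-H2AX was found at 22 of 51 large-subunit genes, 43.1% (30.5 to 56.7), and at 16 of 34 small-subunit genes, 47.1% (31.5 to 63.3). ATM was found at 11 large-subunit genes, 21.6% (12.5 to 34.6), and 10 small-subunit genes, 29.4% (16.8 to 46.2), and HMGA2 at 12, 23.5% (14 to 36.8), and 6, 17.6% (8.35 to 33.5). The like-length shares of large- and small-subunit genes were 21.6% and 20.4% for γ-H2AX, 15.1% and 14.7% for ATM, and 14.2% for both for HMGA2. The intervals of the subunits overlapped for each antibody. Of the 10 genes with paralog symbols, 3 had γ-H2AX peaks within 1 kb, 30% (10.8 to 60.3) against 17.9% at like length, 3 had HMGA2 peaks, against 14.6%, and 1 an ATM peak, 10% (1.79 to 40.4) against 13.5%.

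The highest γ-H2AX score lay in the body of Rps19, a small-subunit protein whose human gene is often mutated in Diamond-Blackfan anaemia (chromosome 7, 24884592 to 24889811). That peak scored 64.6 and covered 24886735 to 24887029. An ATM peak (26.1) began at the same base, and an HMGA2 peak (23.4) lay in the same body without touching them. Rps19 was therefore high for γ-H2AX and near the threshold for HMGA2, with a further ATM peak (30.9) outside its 3′ end.

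Rps3, a small-subunit protein that has also been described as a DNA repair nuclease, had 3 γ-H2AX peaks in its body with scores of 44.7, 28 and 25.2. The strongest overlapped an HMGA2 peak (20.7) that also touched Snord15b, and no ATM peak lay in the body or within 1 kb. Rpl10, which sits where the subunits join, had a γ-H2AX peak of 41.9 with its midpoint at -447 bp from its start. Rps13 had one of 41 outside its 5′ end, with an ATM peak (27.2) in the body.

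HMGA2 had its highest score of 53.5 in the body of Rps20, with a γ-H2AX peak (23.4) beside it and no ATM peak there or within 1 kb. Rpl24, the gene altered in the Belly spot and tail mouse, followed with an HMGA2 peak of 36.5 that overlapped a γ-H2AX peak (20.4), while ATM (25) lay elsewhere in the body. Rpl10a had HMGA2 peaks of 35 and 25 in the body and an ATM peak (25) upstream, with no γ-H2AX peak within 1 kb. Rpl8 had an HMGA2 peak (29.9) outside one end and a γ-H2AX peak (29.8) outside the other.

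The highest ATM scores at the genes were 35.9 in Rplp2, an acidic protein of the stalk that recruits elongation factors, and 33.7 in Rpl23a, a protein near the exit of the nascent chain. In Rplp2 the ATM peak overlapped an HMGA2 peak (20.1), and no γ-H2AX peak lay within 5 kb. In Rpl23a the ATM peak touched Snord42a, and a γ-H2AX peak (20.2) lay elsewhere in the body. Rps19 (30.9), Rps16 and Rpl21 (both 29.8) came next.

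All 3 antibodies had a peak within 1 kb of an end at 4 genes, Rpl11, Rpl17, Rpl30 and Rps28. This was 4.55% of the 88 (1.78 to 11.1), against 1.12% of all coding genes and 0.758% at like length. Rpl17 had HMGA2 (26.9), γ-H2AX (24.7) and ATM (22.2) peaks in its body, of which those of γ-H2AX and ATM overlapped. Rpl30 had HMGA2 (23.2) and γ-H2AX (21.4) peaks in its body and an ATM peak (24.1) outside one end. Rps28 had an ATM peak (21.4) in its own body. Its upstream HMGA2 and ATM peaks also lay in the neighbouring gene Ndufa7, and its γ-H2AX peak (25.4) beyond the 3′ end in Kank3, so that these cannot be assigned to 1 gene.

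At least 2 antibodies were found within 1 kb at 22 genes, 25% (17.1 to 35), against 11.2% of all coding genes and 9.01% at like length. With γ-H2AX and ATM these included Rpl37, with γ-H2AX at 32.6 inside and ATM at 24.1, Rps14, with 27.8 and 29.1, Rps24, with 31 and 26.7, and Rpl21, with 25.5 and 29.8. Rps12 had 3 ATM peaks within 1 kb, the highest at 28, and a γ-H2AX peak of 20.4, and Rps16, Rpl23a, Rps6 and Rpl7l1 also had both. With γ-H2AX and HMGA2 they included Rpl31 (28 and 22.8), Rpl13a, Rps29 (23.6 and 25) and Rps27 (29.2 and 25.8), where the peaks overlapped in the neighbouring gene Nup210l. At 33 of the 88 genes, 37.5% (28.1 to 47.9) against 55.0% of all coding genes and 59.6% at like length, no antibody had a peak within 1 kb. Rps27a was among them, and so were Rpl5 and Rpl22, whose peaks lay either deeper in the body or farther than 1 kb outside it. At least 1 antibody was thus found at 55 genes, 62.5% (52.1 to 71.9), against 45.0% of all coding genes.

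In the gene bodies at least 1 antibody was found at 55 genes, 62.5% (52.1 to 71.9) against 71.1% of all coding genes and 36.9% at like length, and none at 33, 37.5% against 28.9% of all coding genes. At least 2 were found in 20 bodies, 22.7% (15.2 to 32.5) against 51.7% and 9.79%, and all 3 in those of Rpl17, Rpl24 and Rps19, 3.41% (1.17 to 9.55) against 33.5% and 1.66%. Within 5 kb at least 1 antibody was found at 84 genes, 95.5% (88.9 to 98.2) against 86.1% and 77.8%, at least 2 at 60, 68.2% (57.9 to 77) against 56.2% and 41.1%, and all 3 at 21, 23.9% (16.2 to 33.7) against 20.8% and 10.6%. Rpl6, Rpl10l, Rpl13 and Rpl27 had no peak within 5 kb, 4.55% (1.78 to 11.1) against 13.9% and 22.2%.

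Peaks of different antibodies rarely lay on the same bases. Of the 79 HMGA2 peaks in or within 5 kb of the genes, 8 overlapped a γ-H2AX peak, 10.1% (5.22 to 18.7), against 2.67% of the whole HMGA2 list, and 2 overlapped an ATM peak, 2.53% (0.697 to 8.77) against 2.42%. The same overlaps made up 6.9% (3.54 to 13) of the 116 γ-H2AX peaks, against 3.26% of that whole list, and 2.67% (0.734 to 9.21) of the 75 ATM peaks, against 3.08%. Of the 116 γ-H2AX peaks, 6 overlapped an ATM peak, 5.17% (2.39 to 10.8) against 2.68%, and these were 8% (3.72 to 16.4) of the ATM peaks, against 2.79%. The whole-list share thus lay inside the interval counted over γ-H2AX peaks and below it counted over ATM peaks.

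**Figure D4:**
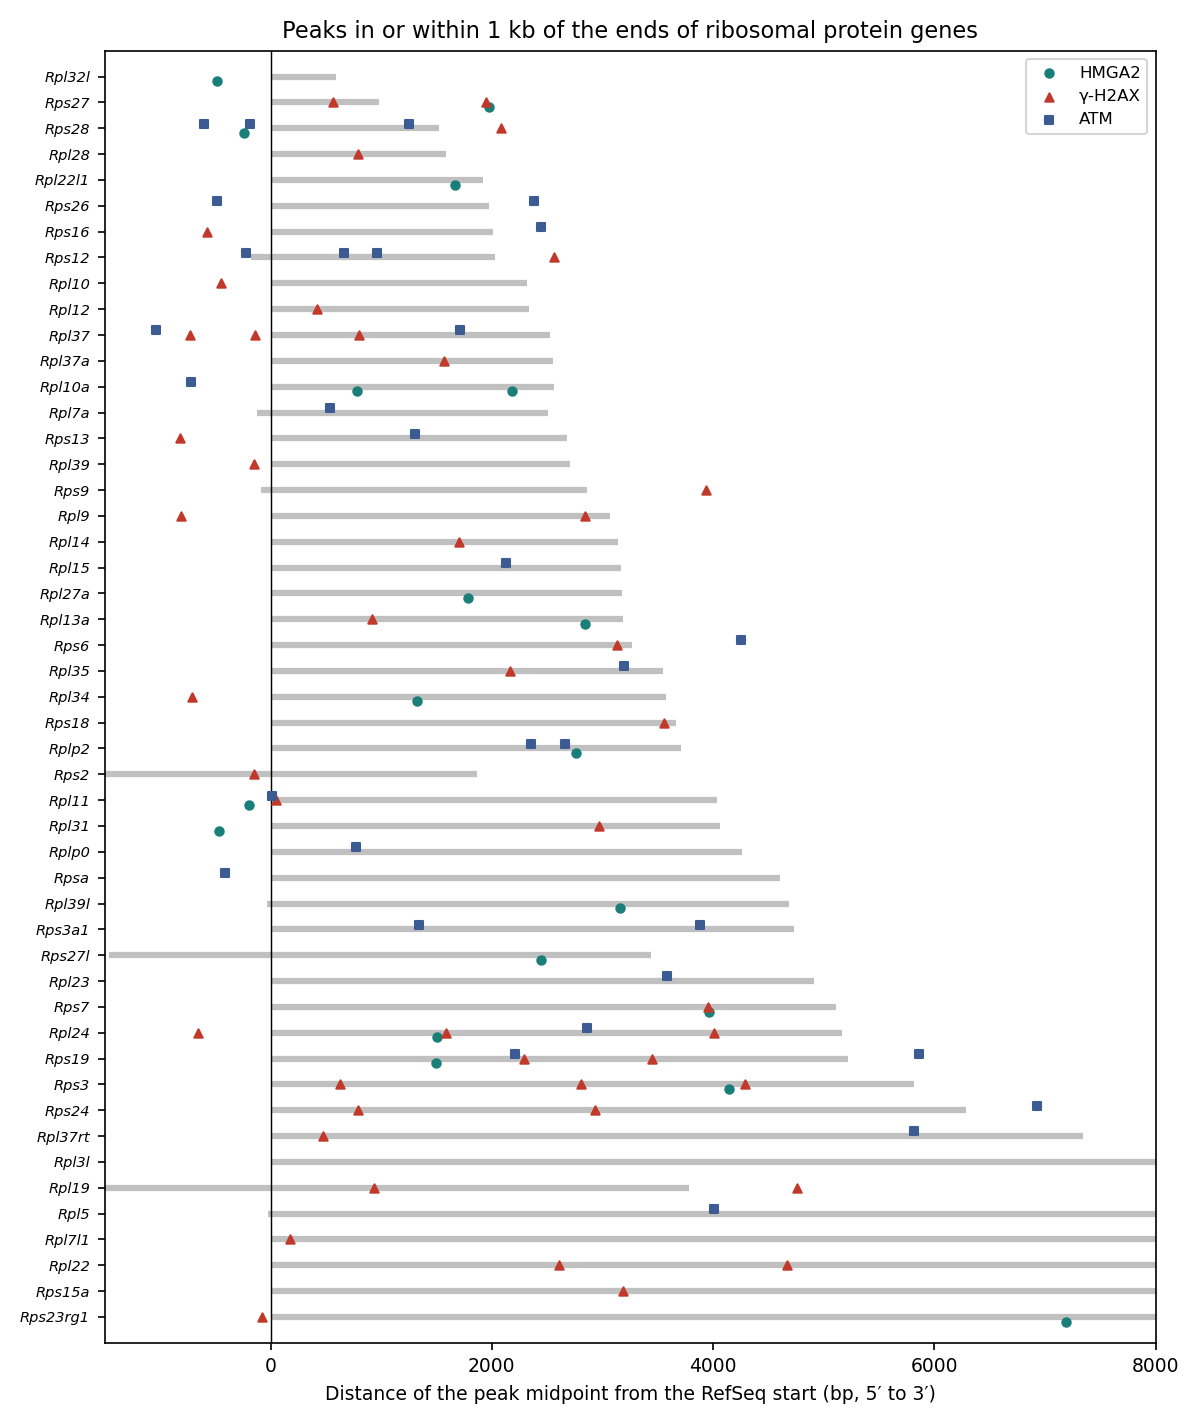
Midpoints of peaks (x axis, bp from the RefSeq start, 5′ to 3′) at the 49 ribosomal protein genes with a strand and a peak in the body or within 1 kb of an end, ordered by gene length. Grey lines are gene bodies and symbols the antibodies; 95 peaks are drawn and 4 lie beyond the axis, and at Rpl11 and Rps28 peaks of several antibodies sit close to the start.

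Genes picked for their role varied. Rpl5, which carries the 5S RNA with Rpl11, had an ATM peak (24.9) on Snord21 in its body and an HMGA2 peak (37.1) upstream with its midpoint at -1883 bp from the start, and no γ-H2AX peak within 5 kb. Rps6 had a γ-H2AX peak (24.1) inside its 3′ end and an ATM peak (22.3) beyond it, with no HMGA2 peak within 5 kb. Rpsa, also known as the laminin receptor, had an ATM peak (21.8) upstream and no other antibody within 5 kb. Rpl22 had γ-H2AX peaks of 34.2 and 22.1 in its body.

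Among the stalk genes, Rplp0 had an ATM peak (23.3) and Rplp1 a γ-H2AX peak (23.3) in the body. Rpl3, near the site of peptide bond formation, had HMGA2 peaks of 28.9 and 28 and a γ-H2AX peak (21.4) in its body, and no ATM peak within 5 kb. Rps27a, made as a fusion with ubiquitin, had no peak in its body or within 1 kb.

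The authors' list of γ-H2AX promoter regions touched windows within 1 kb of 19 genes, 21.6% (14.3 to 31.3), against 9.03% of all coding genes and 7.79% at like length. They included Rpl8, Rpl9, Rpl10, Rpl11, Rpl12, Rpl13a, Rpl17, Rpl23a, Rpl24, Rpl34, Rpl37, Rpl39, Rplp1, Rps3, Rps13, Rps16, Rps18 and Rps23rg1. The ATM promoter list touched 7 genes, 7.95% with a lower interval bound of 3.91%, against 3.44% and 3.32%. These were Rpl10a, Rpl11, Rpl23a, Rps3a1, Rps12, Rps28 and Rpsa, of which Rpl11 and Rpl23a were in both lists. A region near either gene end was counted, so it need not be the promoter of the gene named. How the authors chose these regions is not stated.

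Other parts of the translation machinery were set beside these genes. Of 78 mitochondrial ribosomal protein genes, which have a median length of 7690 bp, 28 had γ-H2AX within 1 kb, 35.9% (26.1 to 47) against 23.4% at like length, 18 had ATM, 23.1% (15.1 to 33.6) against 15.9%, and 17 had HMGA2, 21.8% (14.1 to 32.2) against 16%. The γ-H2AX intervals of mitochondrial and cytoplasmic genes overlapped. Of 24 ribosome assembly genes, γ-H2AX was found within 1 kb at 10, 41.7% (24.5 to 61.2) against 23.9% at like length, with the highest score at Fbl, the methyltransferase of nucleolar RNA (39.6). ATM was found at 6 of them, 25% (12 to 44.9) against 16.1%, and HMGA2 at 3, 12.5% (4.34 to 31) against 16.6%. Of 24 translation factors, γ-H2AX was found at 6, 25% (12 to 44.9) against 24.8% at like length, ATM at 7, 29.2% (14.9 to 49.2) against 16.7%, and HMGA2 at 6, 25% (12 to 44.9) against 17.2%. In the bodies of the translation factors, by contrast, γ-H2AX was found at 21, 87.5% (69 to 95.7) against 50.3% at like length and 55.2% of all coding genes. Within 5 kb it was also found at 21, against 60.6% at like length. ATM touched 50% of the same bodies, against 45.4% at like length, and HMGA2 45.8%, against 42.5%. Of 12 genes of RNA polymerase I transcription γ-H2AX was found within 1 kb at 4, 33.3% against 25.5% at like length, ATM at 1, 8.33% against 17.3%, and HMGA2 at 3, 25% against 18.6%. Of 10 genes that control ribosomal proteins or the p53 response to them, γ-H2AX was found at 3, 30% against 24.9%, ATM at 2, 20% against 16.6%, and HMGA2 at 3, 30% against 18.5%. For these last 2 lists the like-length share lay inside the interval for each antibody. In the bodies γ-H2AX was found at 48.7% of the mitochondrial genes, against 37.7% at like length, and 54.2% of the assembly genes, against 43.4%. It was found in the bodies of 58.3% of the RNA polymerase I genes, against 63%, and 60% of the control genes, against 60.4%. Among ribosomal proteins outside the symbol rule, Rack1 had HMGA2 (40.5) and γ-H2AX (20.9) and Fau had ATM (23.3).

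Ribosomal protein genes have many processed pseudogenes of nearly the same exon sequence, and how the authors treated reads that map to several places is not given in the sources used here. Pseudogenes of these genes were recognised by symbol alone, Rpl or Rps with -ps, so any copy under another name was not counted among them. It could instead fall among the other pseudogenes. The 318 pseudogenes with such symbols, with a median length of 531 bp, had γ-H2AX within 1 kb at 34, 10.7% (7.75 to 14.6) against 10.6% of other pseudogenes of like length. HMGA2 was found at 42, 13.2% (9.92 to 17.4) against 12.7%, and ATM at 25, 7.86% (5.38 to 11.3) against 11%. Among the 24 ribosomal protein genes with 5 or more such pseudogenes γ-H2AX was found within 1 kb at 11, 45.8% (27.9 to 64.9), and among the other 64 at 28, 43.8% (32.3 to 55.9). For ATM the counts were 9, 37.5% (21.2 to 57.3), and 14, 21.9% (13.5 to 33.4), and for HMGA2 4, 16.7% (6.68 to 35.9), and 15, 23.4% (14.7 to 35.1). Coding genes of like length gave γ-H2AX shares of 22.5% for the 24 and 20.5% for the other 64, below both intervals. The like-length ATM share of the 24 was 15.6%, below their interval. That of the other 64 was 14.7%, which lay inside theirs. HMGA2 showed the reverse, with 14.1% inside the interval of the 24 and 14.2% below that of the other 64. The 24 and the other 64 had overlapping intervals with every antibody. The part of mappability in these counts was not tested.

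A snoRNA gene lay inside 30 of the 88 genes. In these hosts ATM peaks lay in the body of 11, 36.7% (21.9 to 54.5), against 11 of the 58 others, 19% (10.9 to 30.9), and HMGA2 peaks in 9, 30% (16.7 to 47.9), against 10, 17.2% (9.64 to 28.9). γ-H2AX peaks lay in the body of 12 hosts, 40% (24.6 to 57.7), and 25 others, 43.1% (31.2 to 55.9). The like-length shares of hosts and others were 15% and 14.9% for ATM, 13.1% and 13.5% for HMGA2, and 20.6% and 19.8% for γ-H2AX. The intervals of hosts and others overlapped for each antibody. A snoRNA gene itself was touched by 5 of the 75 ATM peaks in or within 5 kb of the genes, in Rpl5, Rpl7a, Rpl23a, Rps3a1 and Rps12. The same held for 3 of the 79 HMGA2 peaks and 1 of the 116 γ-H2AX peaks. The share of all peaks that touch a snoRNA gene was not counted, so no preference of an antibody is read from these counts.

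**Figure D5:**
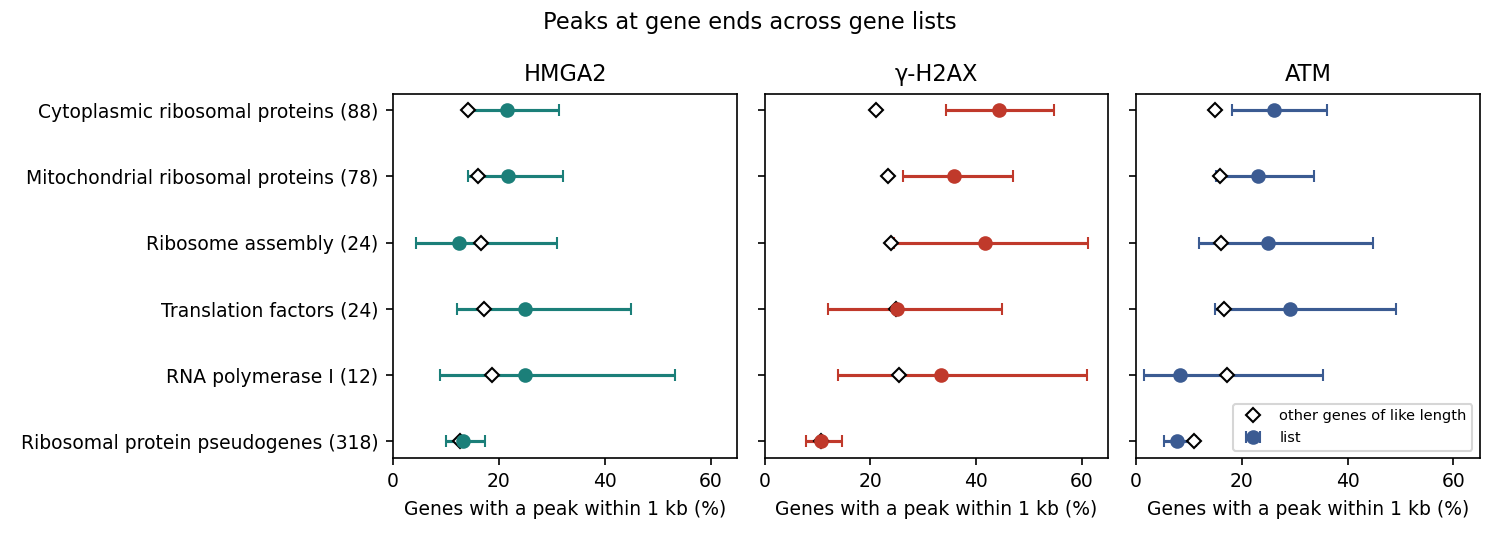
Share of genes with a peak within 1 kb of an end (%, x axis) for ribosomal protein genes, 4 other lists of the translation machinery and ribosomal protein pseudogenes, with the number of genes in brackets and 95% Wilson intervals. Diamonds are other genes of like length; for γ-H2AX the cytoplasmic ribosomal protein genes are at 44.3% and the pseudogenes at 10.7%.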

How the data were processed

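The values are peak lists of HMGA2, γ-H2AX and ATM from wild-type cells, 1 library each. MACS14 made each list from 1 library with no model, a shift size of 30 bp and a p threshold of 0.01, per the labels. Trimmomatic, Bowtie2, SAMtools, HOMER and the build mm10 are named, with no version, in the submitters' processing notes. Which control the calls used, and the depth of the libraries, are not given in the sources used here. The deposited score of a peak is 10 times the negative log10 of its p. The authors' lists of promoter regions hold positions only.

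Gene bounds came from RefSeq on GRCm38.p6, the assembly behind mm10, and strand and promoter sequence from a RefSeq table of that build. A gene was counted when a peak shared at least 1 bp with its window. Like-length shares were taken over other coding genes in classes of length, each spanning a doubling, weighted by the members' lengths. Intervals are 95% Wilson (shares) or exact Poisson (densities) and cover counting error only. With 1 library per antibody no test was possible, and none was made. Counting was tested on simulated lists and against bedtools 2.31.1 (Python 3.11.15, SciPy 1.17.1). The members and gene lists were chosen with earlier results of these data known. Genes named are those with peaks of at least 2 antibodies within 1 kb, the 5 highest-scoring per antibody, those in a promoter list and a set picked by role; any other was chosen after its values were seen. Some genes that meet this rule are not reported here. Alternatives were a score of at least 25, the peak midpoint, members without paralog symbols, a narrower length match and, added later, genes apart from other coding genes. The HMGA2-centred histogram, the plotting settings, the knockout libraries and the inputs were not used here.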

Additional observations from a re-analysis of the deposited data

How the results depend on the processing

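With peaks scoring 25 or more, the genes with a peak in the body numbered 7 (HMGA2), 21 (γ-H2AX) and 9 (ATM), those within 1 kb to 7, 22 and 11, and those within 5 kb to 19 for HMGA2 and 23 for ATM. The γ-H2AX ratio to like length was then 2.73 in the body, 2.76 within 1 kb and 2.22 within 5 kb. All 9 ratios stayed above 1 at that score (1.22 to 2.76) and under the narrower length match (1.35 to 2.28). So did the 6 ratios among genes apart from other coding genes (1.44 to 2.45), an alternative chosen after seeing the data. These 6 were for the body and within 1 kb, and the alternative was not run within 5 kb. No intervals were computed for the ratios at a score of 25 or more. Those of HMGA2 then rested on 7, 7 and 19 genes in the body, within 1 kb and within 5 kb, at 1.41, 1.43 and 1.22. Whether they lay above 1 by more than counting error was not tested. Counts by peak midpoint or without paralog symbols stayed within 1.5 times of those reported. No paired analysis was possible because each antibody had 1 library. No input or replicate was used, so regions with high background in every library were not separated from binding, and depth is unknown. Promoter base composition was not matched, since only 68 of the 88 genes had a promoter entry.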

Other observations

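Around the starts of the 68 ribosomal protein genes with a strand, HMGA2 peak midpoints were counted in bins of 500 bp. In the bin from 2000 to 1500 bp before the start there were 7 peaks, 20.6 per 100 kb (8.28 to 42.4), against 5.68 at all coding genes. They belonged to Rpl5, Rpl24, Rpl34, Rpl37a, Rpl41, Rps4x and Rps13, with scores from 20.1 (Rps13) to 37.1 (Rpl5). In the first 500 bp after the start there was none (exact Poisson upper bound 10.8 per 100 kb), against 1.88 at all coding genes. The bin from 2000 to 1500 bp before the start was noticed among 16 per antibody and was chosen after its values were seen. Single bins of the other antibodies also lay above all coding genes by more than their intervals. At 2500 to 3000 bp after the start γ-H2AX had 7 peaks, 20.6 per 100 kb (8.28 to 42.4) against 6.77. At 2000 to 2500 bp after it ATM had 6 peaks, 17.6 per 100 kb (6.48 to 38.4) against 4.89. Bins were not compared with genes of like length.

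The highest ATM score within 5 kb of these genes was 67.2, at a peak of 95 bp with its midpoint at -1695 bp from the start of Rps16, where a γ-H2AX peak (29.8) began at the same base. Beyond the 3′ end of Rpl36al, an HMGA2 peak of 94 bp scored 40.6 and overlapped a γ-H2AX peak (20.4).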
